A study of Mus musculus with 8 samples.

Results

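A set of 10 genes of cellular iron handling were followed in neonatal mouse cardiomyocytes (NCMs) after exposure in utero to filtered air (FA) or diesel exhaust (DE). Of the 10, Tfrc, Slc11a2, Steap3 and Slc39a14 serve iron uptake, and Hfe, whose protein binds the transferrin receptor, is listed with them. Fth1 and Ftl1 store iron, Slc40a1 exports it, and Ireb2 and Aco1 are regulators. All 10 were found by symbol among the 27179 genes of the count table and passed the filter on low counts. The family was chosen by its role in iron handling after the DE and FA values of Tfrc had been seen, so the difference in Tfrc is a description, given without a p-value, and supports nothing further.

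Poly-A RNA was sequenced from 8 libraries, and each held the NCMs of a single male C57Bl/6 J heart taken on postnatal day 0. Pregnant dams breathed FA (4 libraries, replicates 2, 3, 4 and 6) or DE (4 libraries, replicates 1, 3, 5 and 7) from embryonic day 0.5 into late gestation. The diesel exhaust was held at 300 μg/m3 of fine particles during set hours on weekdays, so the average over the whole period was lower. Hearts were trimmed of atria and pre-plated with Ara-C against fibroblasts, so other heart cells were reduced and not removed by a sort. Litters are not named in the labels, so litter mates cannot be told from unrelated pups. Sample names begin with 11 in all of FA and in DE replicates 1 and 7, and with 12 in DE replicates 3 and 5. What this prefix means is not given in the sources used here. The methods give 3 hearts per group without naming them, so all 4 were kept.

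Libraries held 17943024 to 39839737 counts. Levels are given as CPM, the count of a gene relative to the total of its library, scaled by TMM factors that correct for differences in library composition. A gene was called when edgeR's quasi-likelihood test gave a Benjamini-Hochberg adjusted p of 0.05 or less over all 14966 tested genes and the groups differed by 25% or more of the lower level. By this rule 5.8% of tested genes were called, 2.22% lower and 3.58% higher in DE (332 and 536 genes). Scaling by library totals alone tilted this split to 217 lower and 803 higher. In 14.7% of tested genes the CPM ranges of the groups did not overlap.

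Cells take up most of their iron as transferrin, which binds the transferrin receptor at the surface and is carried inside. Iron that is not used at once is kept in ferritin, and ferroportin carries it out of the cell. When iron is short, the iron regulatory proteins bind hairpins called iron-responsive elements (IREs), which protects the receptor's mRNA from decay through its 3′ untranslated region (UTR) and blocks translation of ferritin and ferroportin mRNA through their 5′ UTRs. Counts of mRNA can therefore follow the first kind of control and not the second. Heart muscle draws on iron for heme and iron-sulfur proteins of its mitochondria, and mice without the receptor in cardiomyocytes die of heart failure early in life.

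The IREs of these genes are shown because they set apart the members whose mRNA level the iron regulatory proteins act on from those whose translation they act on. GENCODE M21 transcripts (GRCm38, the same build as mm10) were searched on the sense strand for a single unpaired C, an upper stem of 5 base pairs and a loop that reads CAGTGN with any last base but G. The unpaired C and the loop are in capitals in each 27-base window, written 5′ to 3′ as DNA. Fth1, Ftl1 and Slc40a1 each held 1 match in the 5′ UTR.
Fth1, 5′ UTR, plus strand, chr19:9982733-9982759: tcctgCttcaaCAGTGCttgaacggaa
Ftl1, 5′ UTR, minus strand, chr7:45459780-45459806: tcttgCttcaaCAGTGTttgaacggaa
Slc40a1, 5′ UTR, minus strand, chr1:45925466-45925492: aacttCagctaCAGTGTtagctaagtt
Tfrc held 4 matches, all in the 3′ UTR and on the plus strand of chromosome 16.
Tfrc, first, chr16:32631220-32631246: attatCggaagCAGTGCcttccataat
Tfrc, second, chr16:32631599-32631625: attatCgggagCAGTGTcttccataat
Tfrc, the third, chr16:32631664-32631690: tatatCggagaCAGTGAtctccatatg
Tfrc, the fourth, chr16:32631711-32631737: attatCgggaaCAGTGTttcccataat
Among 20512 protein-coding genes, 16 (0.078%) held a match in the 5′ UTR and 83 (0.405%) in the 3′ UTR. On the opposite strand, where an RNA element cannot act, 8 and 59 genes held one. A match is a description of letters, and the other members held none of this form in their UTRs.

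Tfrc was lower in every DE library. Tfrc (Entrez gene 22042, chromosome 16 from 32608896 to 32632794) encodes the transferrin receptor. Its level was 394.2, 271.7, 352.1 and 384.1 CPM in FA replicates 2, 3, 4 and 6. In DE replicates 1, 3, 5 and 7 it was 117.0, 98.3, 109.9 and 106.5 CPM. The DE libraries lay close together, the FA libraries were more spread with replicate 3 lowest, and the groups were far from overlapping. The means were 350.5 ± 55.5 CPM in FA against 107.9 ± 7.75 CPM in DE (SD, n = 4 each). The DE level was 30.8% of the FA level, a log2 difference of -1.70 (standard error 0.13). This rests on 47945 fragments counted for Tfrc, with at least 1999 in each library.

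The difference in Tfrc was of similar size under every setting tried. Over the 22 alternatives it ran from -1.81, without FA replicate 3, to -1.55, with the level of erythroid genes as a term. Among libraries with the prefix 11 it was -1.65, and with offsets for the length and GC content of transcripts, which take out trends particular to a library, it was -1.56. Within DE, the mean was 111.8 CPM in the libraries with prefix 11 and 104.1 CPM in those with prefix 12.

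**Figure D1:**
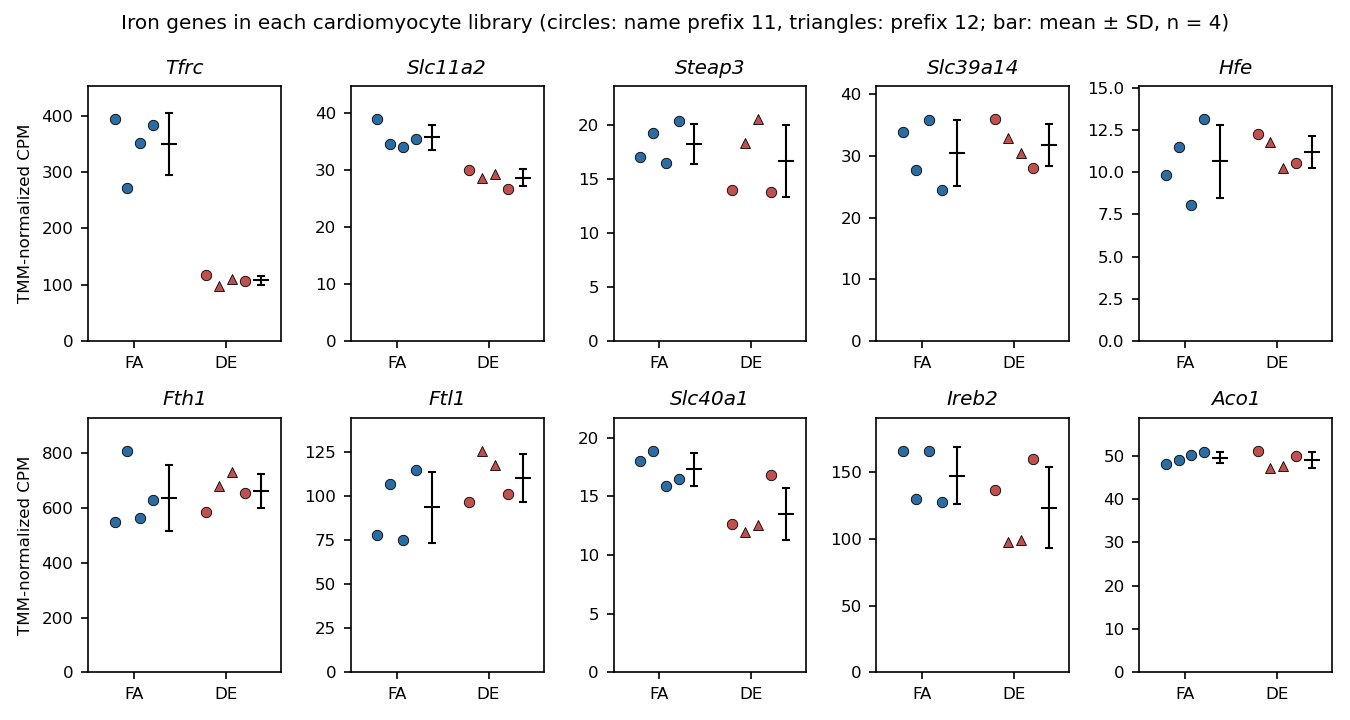
Normalized level of each of the 10 iron genes in every library, in TMM-scaled CPM on axes that start at 0. Points are libraries (circles, name prefix 11, triangles, prefix 12) and the bar beside them is the mean with its SD (n = 4). Tfrc in DE lies between 98.3 and 117.0 CPM, below all FA libraries, while only Slc11a2 among the other genes has groups that do not overlap.

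Slc11a2 showed a small difference that was not called. Slc11a2 (Entrez gene 18174, chromosome 15 from 100387898 to 100424209) encodes the divalent metal transporter DMT1, which moves iron out of the endosome into the cytosol once the receptor has brought it in. It was at 38.9, 34.5, 34.1 and 35.4 CPM in FA replicates 2, 3, 4 and 6 and at 30.0, 28.5, 29.4 and 26.7 CPM in DE replicates 1, 3, 5 and 7. Every DE library lay below every FA library. The groups did not overlap, in one direction or the other, in 14.7% of all tested genes. The log2 difference was -0.32 (standard error 0.09, 95% interval -0.52 to -0.12, edgeR's quasi-likelihood adjusted p = 0.0645). DESeq2 gave an adjusted p of 0.0182, edgeR's likelihood ratio test 0.0465 and the length and GC offsets 0.0296, but in all 3 the difference stayed under 25% of the lower level. Over the alternatives the difference lay between -0.35 and -0.25, so its direction was the same in each. Slc11a2 makes transcripts with and without an IRE, and counts per gene add them together. A noncoding gene that overlaps it held 5 fragments in all libraries.

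The remaining genes listed with uptake overlapped between the groups and were not called. They are Steap3 (Entrez gene 68428, chromosome 1 from 120226414 to 120271081), Slc39a14 (Entrez gene 213053, chromosome 14 from 70303467 to 70351452) and Hfe (Entrez gene 15216, chromosome 13 from 23702034 to 23710854). Steap3, the reductase that prepares iron in the endosome for DMT1, was at 17.0, 19.2, 16.5 and 20.4 CPM in FA replicates 2, 3, 4 and 6. In DE replicates 1, 3, 5 and 7 it was at 13.9, 18.4, 20.6 and 13.8 CPM. DE replicates 1 and 7 lay below every FA library, and replicates 3 and 5 lay above the FA mean. Its log2 difference was -0.13 (standard error 0.15, edgeR adjusted p = 0.613), and among libraries with the prefix 11 it was -0.40 (edgeR adjusted p = 0.170). It rested on single libraries, at -0.073 without FA replicate 6, -0.051 and -0.056 without DE replicates 1 and 7, and -0.24 without DE replicate 5. Slc39a14 encodes ZIP14, a carrier of iron that is not bound to transferrin, and Hfe encodes a membrane protein that binds the transferrin receptor. Slc39a14 ranged from 24.5 to 35.8 CPM in FA and from 28.0 to 35.9 CPM in DE (log2 difference 0.06, 95% interval -0.23 to 0.36, edgeR adjusted p = 0.792). Hfe ranged from 8.07 to 13.1 CPM in FA and from 10.3 to 12.3 CPM in DE (log2 difference 0.08, 95% interval -0.25 to 0.41, edgeR adjusted p = 0.777). For both genes the DE range lay almost inside the FA range. The signs of both turned under 2 of the 22 alternatives each, to values no lower than -0.053.

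The ferritin genes overlapped between the groups. Fth1 (Entrez gene 14319, chromosome 19 from 9980600 to 9985111) encodes the ferritin heavy chain, which oxidizes iron as it enters the shell. It was at 547.0, 808.6, 563.1 and 629.9 CPM in FA replicates 2, 3, 4 and 6 and at 584.2, 678.9, 729.6 and 655.2 CPM in DE replicates 1, 3, 5 and 7. All DE libraries lay inside the range of FA, whose highest library was replicate 3. The log2 difference was 0.06 (standard error 0.13, 95% interval -0.24 to 0.35, edgeR adjusted p = 0.821), and its sign turned under 6 of the 22 alternatives.

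Ftl1 (Entrez gene 14325, chromosome 7 from 45457944 to 45459886) encodes the ferritin light chain, which helps the iron core form. It was at 77.9, 107.0, 74.9 and 114.7 CPM in FA and at 96.6, 125.7, 117.6 and 101.0 CPM in DE, in the same order of replicates. FA replicates 3 and 6 lay within the DE range, and FA replicates 2 and 4 lay below it. The log2 difference was 0.24 (standard error 0.15, 95% interval -0.10 to 0.57, edgeR adjusted p = 0.351), and it was 0.0013 with the length and GC offsets. It was 0.16 and 0.14 without FA replicates 2 and 4, and as single libraries were left out it reached 0.35, without FA replicate 6. Ferritin genes have processed pseudogenes, and the deposited counts give Ftl1-ps2 between 10.49% and 12.7% of the count of Ftl1, so how reads were shared between them is uncertain.

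Slc40a1 was lower in 3 of the 4 DE libraries and was not called. Slc40a1 (Entrez gene 53945, chromosome 1 from 45908070 to 45926532) encodes ferroportin, the known iron exporter of mammalian cells. FA replicates 2, 3, 4 and 6 held 18.05, 18.9, 15.9 and 16.5 CPM. DE replicates 1, 3, 5 and 7 held 12.7, 11.9, 12.5 and 16.8 CPM. DE replicate 7 stood apart from the other DE libraries and lay inside the FA range. The log2 difference was -0.37 (standard error 0.13, 95% interval -0.65 to -0.09, edgeR adjusted p = 0.108). Without DE replicate 7 it was -0.49 (edgeR adjusted p = 0.0414), which is past both thresholds, and over the other 21 alternatives it was not called, with adjusted p between 0.0637 and 0.793. Among libraries with the prefix 11 the difference was -0.25.

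The regulators were not called either. Ireb2 encodes IRP2, which is broken down when iron is plentiful, and Aco1 encodes IRP1, which becomes the cytosolic aconitase when it holds an iron-sulfur cluster. Ireb2 (Entrez gene 64602, chromosome 9 from 54862658 to 54912534) was at 165.8, 129.9, 165.5 and 127.8 CPM in FA replicates 2, 3, 4 and 6. In DE replicates 1, 3, 5 and 7 it was at 136.6, 97.6, 98.7 and 159.7 CPM. Each group split into a higher and a lower pair, and the low pair of DE was that with the prefix 12. The log2 difference was -0.26 (standard error 0.17, edgeR adjusted p = 0.355), and it was 0.0040 among libraries with the prefix 11. It was -0.16 without DE replicate 3, -0.17 without DE replicate 5 and -0.41 without DE replicate 7.

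Aco1 (Entrez gene 11428, chromosome 4 from 40143265 to 40199009) was at 48.1, 49.1, 50.2 and 50.8 CPM in FA and at 51.1, 47.2, 47.7 and 49.99 CPM in DE. All 8 libraries lay within a narrow band. The log2 difference was -0.02 with a 95% interval of -0.20 to 0.17 (edgeR adjusted p = 0.926).

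**Figure D2:**
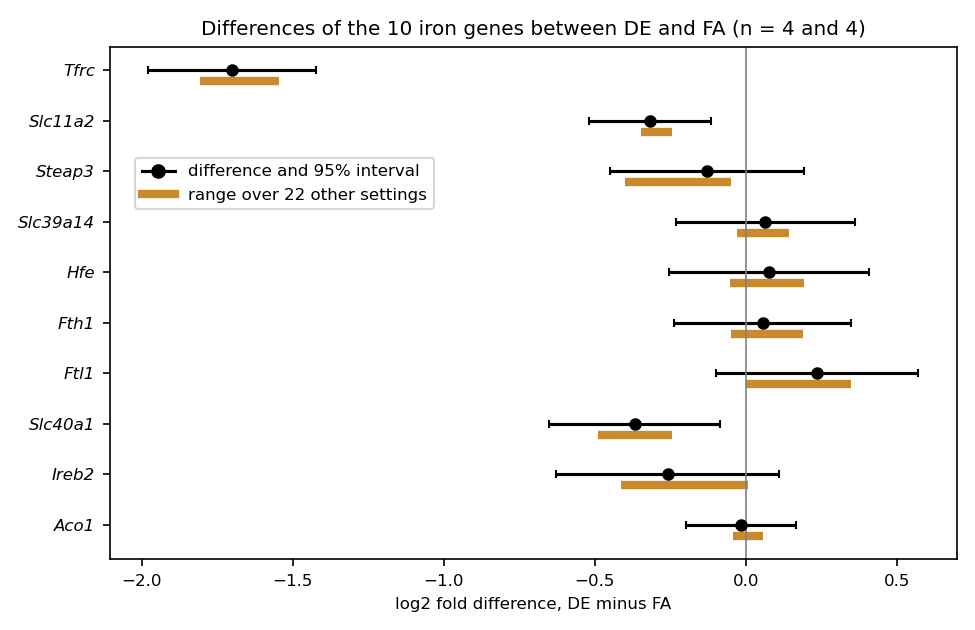
Difference between DE and FA for the 10 iron genes on a log2 scale, where 0 is no difference. Black points are the fitted differences with 95% intervals (n = 4 and 4 libraries) and the coloured bars are the range over 22 other settings. Tfrc lies at -1.70 and is a description, and the other 9 genes lie between -0.37 and 0.24.

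Tfrc was left out of the count of calls, since its difference was known when the family was chosen. Of the other 9 genes 0 were called by edgeR's quasi-likelihood test, beside 5.8% of all tested genes, and DESeq2 and edgeR's likelihood ratio test also called 0 of them, beside 10.9% and 10.7%. At an unadjusted p under 0.05 there were 2 of these 9 (Slc11a2 and Slc40a1), beside 25.6% of all tested genes. Of the 10, with Tfrc included, 6 were lower and 4 higher, with a median log2 difference of -0.07, beside a median of 0.00 (0.0037) over all tested genes. Without Tfrc, the middle value of the other 9 was that of Aco1, -0.02. When only library totals were used for scaling, the median of all genes moved to 0.08 and that of the 10 to -0.00 (-5e-05).

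Per length of transcript, the order of the genes within the cells could be compared. Levels were divided by the exon length of GENCODE M21 transcripts that match a RefSeq mRNA, which may differ from the annotation used for counting. In FA, Fth1 held 685.8 ± 129.0 CPM per kb, Ftl1 96.7 ± 20.8, Tfrc 71.7 ± 11.4, Ireb2 25.5 ± 3.69 and Aco1 12.9 ± 0.31 CPM per kb (SD, n = 4). Slc11a2, Slc39a14, Slc40a1, Steap3 and Hfe followed with means from 6.23 down to 2.98 CPM per kb. The FA ranges of Ftl1 and Tfrc overlapped, as did those of Slc39a14 with Slc11a2 and with Slc40a1, and those of Steap3 and Hfe. In DE, Tfrc held 22.1 ± 1.59 CPM per kb and fell within the range of Ireb2, which was 16.9 to 27.7 CPM per kb, while Ftl1 was at 113.9 ± 14.2 CPM per kb. Tfrc thus overlapped with Ftl1 in FA and with Ireb2 in DE, and its place in the order of means was the same. The level of Tfrc as a ratio to that of Fth1, both per kb, was 0.137, 0.0638, 0.119 and 0.116 in FA and 0.0380, 0.0275, 0.0286 and 0.0309 in DE. The 10 genes together took 0.13% to 0.143% of the counts of an FA library and 0.112% to 0.122% of a DE library. Tfrc, whose difference was known beforehand, is part of this total, and the share without it was not worked out.

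A comparison inside the DE group did not enter the choice of the genes. DE replicates 3 and 5 (prefix 12) were compared with DE replicates 1 and 7 (prefix 11) in a model of 3 groups that shared the spread of all 8 libraries, and 2.06% of tested genes were called. The quasi-likelihood fit of edgeR called 0 of the 10 iron genes, and 2 had an unadjusted p under 0.05, beside 23.3% of all tested genes. DESeq2 and edgeR's likelihood ratio test each called 2, and both times these were Ireb2 and Steap3. Over all tested genes these tools called 6.58% and 8.51%. Ireb2 was at 148.2 CPM with prefix 11 and 98.1 CPM with prefix 12, a log2 difference of -0.59 (standard error 0.16, edgeR adjusted p = 0.0737). With the length and GC offsets this was -0.18. Without FA replicate 3, which is in neither group compared, Ireb2 was called (edgeR adjusted p = 0.0413). Steap3 was at 13.9 and 19.5 CPM, a log2 difference of 0.49 (standard error 0.15, edgeR adjusted p = 0.0912). For Tfrc the same difference was -0.10 (standard error 0.17, edgeR adjusted p = 0.741).

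The wider set of iron genes was described from 6 lists written from general knowledge with earlier results of these data known. Of 81 genes, 74 passed the filter, and 6 of these (8.11%) were called beside 5.8% of all genes. Of the 6, 4 were lower and 2 higher in DE, while with library totals alone 1 was called lower (Iba57) and 4 higher. Of all 74, 21 had an unadjusted p under 0.05, a share near the 25.6% of all tested genes. The median log2 difference over the 74 was 0.02. Calls here depended on single libraries, and from 1 to 6 genes were called as each library was left out, with 72 to 76 then passing the filter. With the erythroid level as a term, or with the 25% difference built into the test, Iba57 alone of the 74 was called. With the prefix as a term or the prefix 11 libraries only, Iba57, Alas1 and Scara5 were called.

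Among genes of mitochondrial iron and iron-sulfur clusters, 1 of 25 (4%) was called, a share near the 5.8% of all tested genes. Iba57, which helps to assemble iron-sulfur clusters for mitochondrial enzymes, was at 19.8, 21.3, 21.6 and 18.6 CPM in FA replicates 2, 3, 4 and 6 and at 12.2, 11.2, 12.0 and 13.1 CPM in DE replicates 1, 3, 5 and 7. The groups did not overlap, and Iba57 fell by 0.75 on the log2 scale (standard error 0.10, edgeR adjusted p = 0.0030). It was called under all 22 alternatives.

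In the heme list 1 of 18 genes (5.56%) was called, a share near the 5.8% of all tested genes. Alas1, the first and rate-limiting enzyme of heme synthesis outside erythroid cells, was at 163.0, 186.1, 150.3 and 202.7 CPM in FA and at 105.9, 124.8, 143.3 and 104.2 CPM in DE, in the same order of replicates. The groups did not overlap, and it fell by 0.55 on the log2 scale (standard error 0.13, edgeR adjusted p = 0.0356). The call was lost without FA replicate 2 (adjusted p = 0.0803), 3 (0.0755), 4 (0.0577) or 6 (0.0667) and without DE replicate 1 (0.0576), 3 (0.0875) or 7 (0.0652). Hmox1, the heme oxygenase that frees iron from heme, ranged from 30.2 to 42.4 CPM in FA and from 34.5 to 62.5 CPM in DE (log2 difference 0.47, edgeR adjusted p = 0.132). Fech, which puts iron into heme, is outside the naming rule and was singled out after its values were seen. It was at 88.1 ± 3.28 CPM in FA against 74.0 ± 3.57 CPM in DE without overlap (log2 difference -0.25, edgeR adjusted p = 0.0983).

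**Figure D3:**
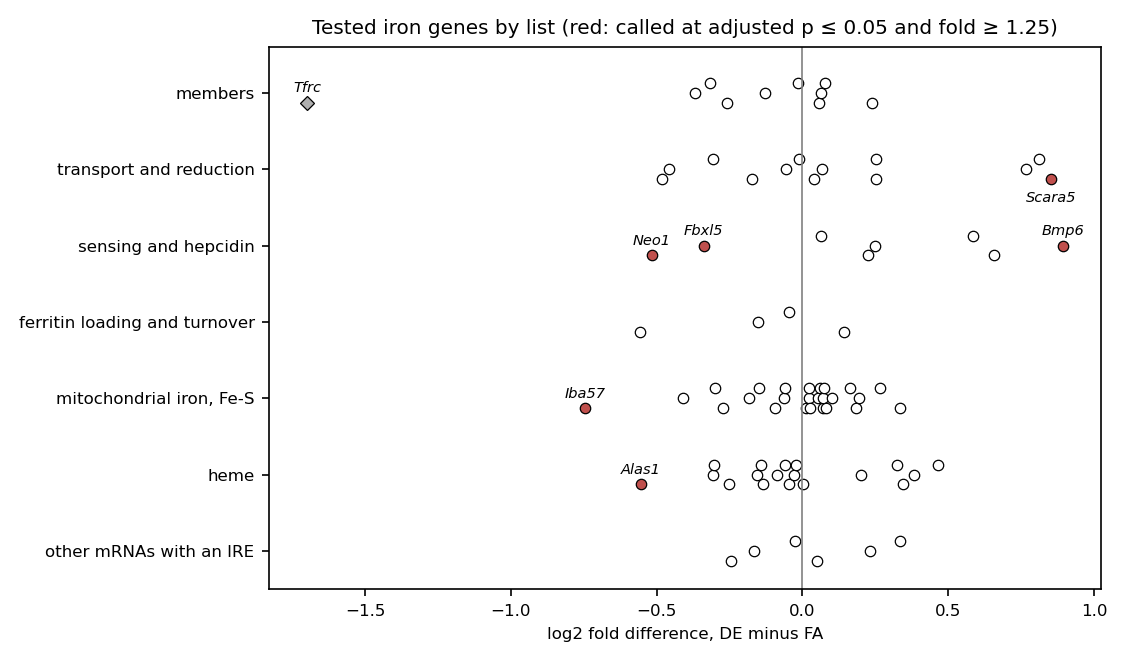
Log2 difference between DE and FA for every tested iron gene, by list, with the 10 iron genes in the top row. Red points are called genes, and the grey diamond is Tfrc, at -1.70, for which no call is shown. Below the top row 6 genes (Scara5, Neo1, Fbxl5, Bmp6, Iba57 and Alas1) are red, between -0.75 and 0.89.

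In the list of iron sensing and hepcidin genes 3 of 8 were called, beside 5.8% of all tested genes. DESeq2 and the likelihood ratio test called 4 each, beside 10.9% and 10.7%, and limma-voom called 2. Fbxl5 (an iron-sensing ubiquitin ligase subunit that marks IRP2 for breakdown) was at 65.9 ± 3.24 CPM in FA against 52.1 ± 3.42 CPM in DE, without overlap (log2 difference -0.34, edgeR adjusted p = 0.0494). It was at the edge of the threshold and lost its call as any library was left out. Without FA replicates 2, 3, 4 and 6 its adjusted p was 0.124, 0.0847, 0.156 and 0.0557, and without DE replicates 1, 3, 5 and 7 it was 0.0551, 0.149, 0.112 and 0.0506. Neo1, neogenin, which binds the hepcidin co-receptor hemojuvelin, was at 210.0 ± 24.9 CPM in FA against 146.9 ± 23.5 CPM in DE (log2 difference -0.52, edgeR adjusted p = 0.0443). Its call was lost without FA replicate 2 (adjusted p = 0.137), 3 (0.0696) or 4 (0.124) and without DE replicate 3 (0.129), 5 (0.101) or 7 (0.0503). Among prefix 11 libraries its difference was -0.34.

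Bmp6 and Bmp2 are ligands that drive hepcidin in the liver and act in many tissues. Bmp6 was at 7.43, 6.98, 8.75 and 7.57 CPM in FA and at 16.4, 18.1, 11.9 and 10.4 CPM in DE, in the same order of replicates. It rose by 0.89 on the log2 scale (standard error 0.18, edgeR adjusted p = 0.0180), and lost its call without FA replicate 2 (adjusted p = 0.0664), FA replicate 3 (0.0502) or DE replicate 3 (0.0535). It was also lost with the prefix as a term (0.0562), with prefix 11 only (0.0550) and with the erythroid term (0.145). Bmp2 ranged from 4.33 to 5.00 CPM in FA and from 5.61 to 8.20 CPM in DE (log2 difference 0.58, edgeR adjusted p = 0.0532), and was called in 5 of the 22 alternatives. These were DESeq2 (adjusted p = 0.0160), the likelihood ratio test (0.0203), library totals alone (0.0389), the length and GC offsets (0.0294) and the fit without DE replicate 5 (0.0433). Hamp, hepcidin itself, is outside the naming rule. It was below 1 CPM in each library, so a difference was not detectable with any precision at this depth.

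Among transport and reduction genes 1 of 13 (7.69%) was called, a share near the 5.8% of all tested genes. Scara5, a receptor for ferritin, was at 4.68, 5.33, 5.76 and 5.26 CPM in FA and at 11.0, 10.2, 6.88 and 9.86 CPM in DE. All DE libraries lay above the FA range, with DE replicate 5 nearest to it, and Scara5 rose by 0.85 on the log2 scale (standard error 0.16, edgeR adjusted p = 0.0147). Without FA replicate 2 the adjusted p was 0.0612. Steap1, of the same family as Steap3, went from 0.783 ± 0.174 CPM to 1.34 ± 0.196 CPM (log2 difference 0.77, edgeR adjusted p = 0.0703). Transferrin (Trf), the ligand of the receptor and also outside the naming rule, was at 10.4 ± 1.88 CPM in FA against 12.3 ± 3.74 CPM in DE (edgeR adjusted p = 0.481).

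The lists of ferritin turnover and of other mRNAs with an IRE held no call by edgeR's quasi-likelihood test. Of 4 ferritin turnover genes, 1 had an unadjusted p under 0.05, and DESeq2 called 1 and the likelihood ratio test 1. The matching shares over all tested genes were 25.6%, 10.9% and 10.7%. That gene was Herc2, a ubiquitin ligase that acts on the ferritin receptor Ncoa4, with a log2 difference of -0.56 (edgeR adjusted p = 0.0926). Ncoa4, which takes ferritin to the lysosome, was at 70.1 ± 4.25 CPM in FA against 63.1 ± 4.90 CPM in DE (edgeR adjusted p = 0.330). Of the 6 other mRNAs with an IRE, 3 had an unadjusted p under 0.05, against the same 25.6%, and neither DESeq2 nor the likelihood ratio test called any. Epas1, the hypoxia-inducible factor HIF-2α, had a log2 difference of 0.34 (edgeR adjusted p = 0.112).

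Tfrc is abundant in erythroid precursors and macrophages handle much of the body's iron, so markers of other cells were read beside it. In bulk samples fewer cells of a type and less RNA per cell cannot be told apart. The 19 erythroid markers in the table summed to 958.9, 1912, 794.6 and 991.9 CPM in FA and to 1654, 2052, 1242 and 1281 CPM in DE, in the same order of replicates. The sums of the groups overlapped, and FA replicate 3 held the highest sum of its group. Globins made up most of this sum, at 740.9 to 1845 CPM in FA and 1191 to 1988 CPM in DE. Hba-a1 was at 409.2 ± 184.6 CPM in FA against 546.4 ± 132.5 CPM in DE, Hba-a2 at 505.7 ± 238.1 and 669.4 ± 169.2, and Hbb-bs at 190.9 ± 78.1 and 279.6 ± 74.6 CPM. Alas2, the erythroid enzyme of heme synthesis, was at 21.03 ± 7.76 and 24.1 ± 7.31 CPM. Of 10 tested erythroid markers 1 (10%), Slc4a1, was called, and it was higher in DE, beside 3.58% of all tested genes called higher. Hbb-bh1 was at 0 counts in all libraries. With the erythroid level as a term in the model, the difference in Tfrc was -1.55.

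Of the other marker lists, 3 had sums that did not overlap between the groups. A sum follows its most abundant genes. Gene by gene, the groups did not overlap in 2 of 10 cardiomyocyte, 1 of 7 fibroblast and 0 of 7 tested macrophage markers. The share over all tested genes was 14.7%. Cardiomyocyte markers, 10 genes, summed to 64835 to 71025 CPM in FA and 49508 to 57796 CPM in DE, without overlap, and 2 of the 10 (20%), Myh6 and Pln, were called lower, beside 2.22% of all tested genes. Their log2 differences ran from -0.80 to -0.05, with a median of -0.18. Fibroblast markers, 7 genes, summed to 1722 to 3029 CPM in FA and 3221 to 5233 CPM in DE, without overlap, and 2 of the 7 (28.6%), Col1a1 and Dcn, were called higher, beside 3.58% of all tested genes. Macrophage markers, 15 genes, summed to 18.02 to 23.4 CPM in FA and 24.1 to 35.2 CPM in DE, also without overlap, with Timd4 at 0 counts. Only 7 of these were tested, and edgeR's quasi-likelihood test called 0 of them, beside 5.8% of all tested genes. Endothelial markers, 7 genes, summed to 905.5 to 1192 CPM in FA and overlapped with DE at 961.3 to 1431 CPM, and hepatocyte markers, 8 genes with Serpina1a at 0 counts, summed to 4.06 to 6.10 CPM and 4.32 to 12.3 CPM, also with overlap. The part of these shifts in the values of the iron genes was not tested.

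**Figure D4:**
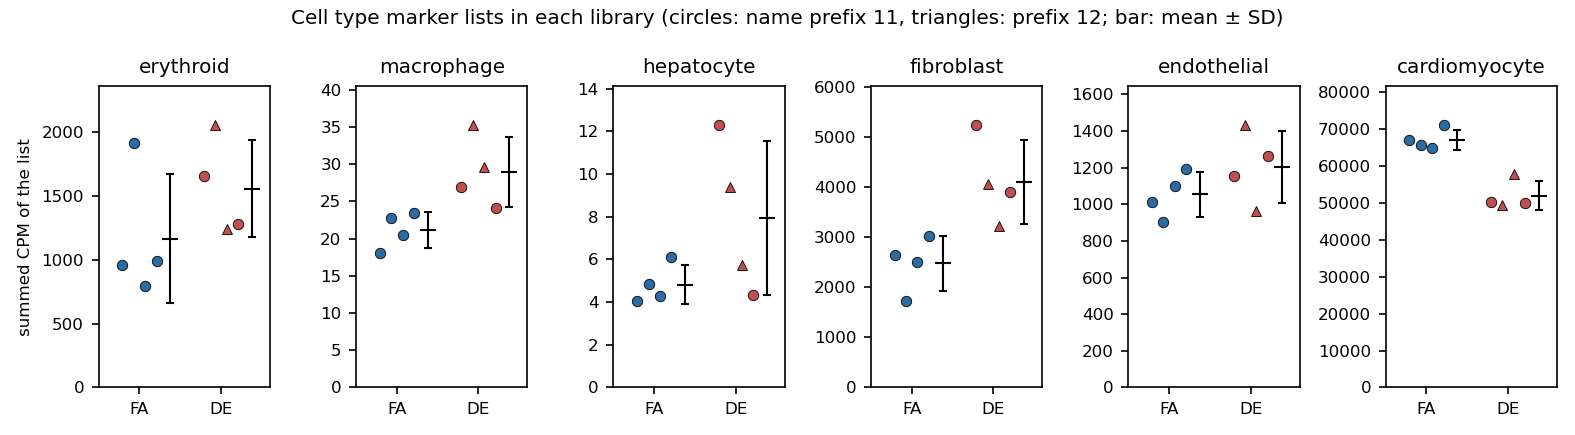
Summed level of 6 lists of cell type markers in each library, in CPM on axes that start at 0, with points and bars as in the plot of the iron genes by library. The cardiomyocyte sum is lower, and the fibroblast and macrophage sums higher, in DE without overlap. Erythroid sums overlap between FA (794.6 to 1912 CPM) and DE (1242 to 2052 CPM).

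Genes with a pattern like that of Tfrc were listed by the Pearson correlation of log2 CPM over the 8 libraries. The 5 highest of all tested genes were Myh6 (r = 0.996), Vwa8 (0.991), Abcd3 (0.990), Cpt1a (0.989) and Coa5 (0.988). All 5 were lower in DE, with log2 differences from -1.49 (Cpt1a, the entry step of fatty acids into mitochondria) to -0.49 (Coa5, an assembly factor of cytochrome oxidase). The difference between the groups is a part of each of these correlations. With each group centred on its own mean, r was 0.905 for Myh6, the alpha myosin heavy chain, and between 0.685 and 0.734 for the other 4. All of these values come from the same 8 libraries and the same scaling, and they are a description.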

How the data were processed

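RNA-seq of NCMs gave 8 libraries, 4 FA and 4 DE, grouped by their labels. The deposited values are raw counts of fragments per Entrez gene, which the authors made by aligning reads to mm10 with TopHat, marking duplicates without removal and counting with featureCounts. The strand setting, the treatment of multi-mapping reads and the versions of TopHat and featureCounts are not given in the sources used here. Whether marked duplicates were counted is not given either, so fragments may not all be separate molecules and counting error may be understated. Symbols came from a RefSeq table on GRCm38.p6 (25275 of 27179 genes, and genes without one held at most 0.581% of a library's counts). Of 159 list genes, 157 matched.

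Genes kept by filterByExpr (minimum count 10) were scaled by TMM and tested with edgeR 4.0.16 (glmQLFit, glmQLFTest) in R 4.3.3, with Benjamini-Hochberg adjustment over 14966 genes. The biological coefficient of variation was 15.95%. Standard errors come from the F statistic and 95% intervals from its moderated degrees of freedom. Replicates are separate hearts. Members, lists and named genes were chosen with earlier results of these data known. Named genes were all 10 members, called genes of the wider lists, the 2 with the largest difference per list at a mean of at least 1 CPM, erythroid markers at a mean of at least 10 CPM, and the 5 genes most like Tfrc. Of these, 3 genes are not reported here. Other genes are named to describe a list or after their values were seen.

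Alternatives were DESeq2 1.42.0, the likelihood ratio test, limma-voom (limma 3.58.1), the 25% difference built into the test, other scalings and filters, the name prefix or erythroid level as a term, prefix 11 libraries only, and each library left out. Offsets for the length and GC content of transcripts (splines of 5 degrees of freedom, both known for 92.55% of tested genes) and the same genes without offsets were added after seeing the data. On simulated counts with the means of these libraries, the test recovered 199 of 200 changed genes with 9 false calls among 14873 genes. The planted changes were larger than the differences of the members other than Tfrc. They were placed only in genes above a count floor, and all genes were given the same spread. Recovery of small differences was therefore not measured.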

Additional observations from a re-analysis of the deposited data

Results flagged for a closer look

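Slc40a1 in DE replicate 7, at 16.8 CPM, stood apart from the other DE libraries, which lay between 11.9 and 12.7 CPM. Its gap to the nearest of them was 0.847 of the whole range of the group, above Dixon's 95% critical value for 4 samples. Of 20 groups examined (10 genes in FA and DE), this was the only one past that value, and chance alone gives about 1 in 20.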

How the results depend on the processing

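Of 220 values of the 10 members' differences under 22 alternatives, 203 kept their direction and side of the threshold, 16 changed sign and 1 (Slc40a1 without DE replicate 7, -0.49) passed the threshold. The difference in Tfrc lay between -1.81 and -1.55. No paired analysis was possible because the labels pair no FA heart with a DE heart, and replicate numbers do not mark pairs. Sign changes were, for Slc39a14, -0.028 without FA replicate 6 and -0.00064 without DE replicate 1 (0.14 at the other end, without FA replicate 4). For Hfe they were -0.053 with the erythroid term and -0.038 without FA replicate 4 (up to 0.19 without FA replicate 6). For Fth1 they were -0.040 with the prefix term, -0.048 with the erythroid term, -0.045 with prefix 11 only, -0.026 with the length and GC offsets, -0.012 without FA replicate 2 and -0.0076 without FA replicate 4 (up to 0.19 without FA replicate 3). For Ireb2 they were 0.0080 with the prefix term and 0.0040 with prefix 11 only. For Aco1 they were 0.055 with library totals alone, 0.030 with the prefix term, 0.025 with prefix 11 only and 0.00046 without DE replicate 3 (down to -0.039 without DE replicate 1). The cause was not tested.

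The members past both thresholds, 1 in the reported fit (Tfrc, whose difference was known beforehand and is not read as a call), became 2 without DE replicate 7, with Slc40a1, and ranged from 1 to 2 as single libraries were left out. The 6 wider iron genes called became 1 with the 25% difference built in, 3 with the prefix term, 1 with the erythroid term, 3 with prefix 11 only and 11 with the offsets, and ranged from 1 (without FA replicate 2) to 6 over single libraries left out, with 2 without FA replicate 3 or DE replicate 3 and 3 without FA replicate 4 or DE replicate 7. All genes called, 868, became 1633 with DESeq2, 1603 with the likelihood ratio test, 114 with the 25% difference built in, 448 with the prefix term, 164 with the erythroid term, 260 with prefix 11 only and 1540 with the offsets, and ranged from 237 (without FA replicate 4) to 1168 (without DE replicate 1), with 249, 433, 268 and 526 without FA replicates 2 and 3 and DE replicates 3 and 5. In the comparison of prefixes within DE, 309 called genes became 985 with DESeq2, 1273 with the likelihood ratio test, 26 with library totals alone, 1119 without a filter and 158 with the offsets, and ranged from 0 (without DE replicate 3 or 5, where 1 library is assumed to vary like the rest) to 1031 (without FA replicate 3), with 1 without DE replicate 1 and 19 without DE replicate 7. The 0 members called there became 2 with DESeq2, 2 with the likelihood ratio test and 1 without a filter, and ranged from 0 to 1.

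Hfe rested on 143 fragments in its lowest library, with a standard error (0.15) no wider than those of the deeper Ftl1 (0.15) and Ireb2 (0.17), and 7 of the 81 wider genes were too low to test. Interval widths for the other members show what 4 hearts against 4 can resolve.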

Other observations

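The mRNAs with an IRE-like hairpin were also read as groups, a description chosen after the data were seen. Of 71 tested genes with a match in the 3′ UTR, 5 were called (7.04%, 3 lower and 2 higher, with Tfrc, whose difference was known, among the 3), close to the share over all genes. Of 15 tested genes with a match in the 5′ UTR, edgeR's quasi-likelihood test called 0, while 5 had an unadjusted p under 0.05 and DESeq2 and the likelihood ratio test each called 2. The shares over all tested genes were 25.6%, 10.9% and 10.7%. The median log2 differences were -0.05 and 0.06.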
